A study of Mus musculus with 2 samples.

Results

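The genes described here lie on mouse chromosome 2 around Rag1, the gene of the V(D)J recombinase that was disrupted in 1 of the 2 kinds of mice compared. Members are the array probes that the scanner files place on chromosome 2 between 81 and 121.5 Mb, with Rag1 near 101.5 Mb, whatever their measured values. Left out by name were olfactory receptor (Olfr), ribosomal, proteasome (Psm) and Nduf probes and 8 genes: Rag1, Rag2, Bmf, Spred1, Gpr176, Ptprj, Pdia3 and Dgkz. This left 598 of the 831 probes of the window, out of 41174 gene probes on the array. The 598 members carry 390 gene names. They are set against the other 39841 probes with a position in the genome, which include the 233 left out by name.

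The study compared immature B cells whose receptor meets its antigen with cells whose receptor does not, on 2 two-colour arrays. The autoreactive cells came from BALB.B mice of genotype 3-83Igi, Rag1-/- and H-2b and carried Cy5. The non-autoreactive cells came from BALB/c mice of genotype 3-83Igi and H-2d, for which no Rag1 disruption is listed, and carried Cy3. All were pooled bone marrow cells of untreated mice, sorted as B220+ and negative for CD23, CD43 and IgD, and both groups carry the 3-83Igi receptor. Ages and the number of pooled animals are not given in the labels, and neither is the stem cell strain in which the Rag1 allele was made. Strain, H-2 haplotype, the Rag1 allele and the dye all followed the 2 groups, so none of them can be told apart from autoreactivity in any ratio below. Both arrays lay on 1 slide with 1 scan and the same dye orientation.

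As background, a disrupted allele is made in embryonic stem cells of some strain, and crossing to another strain leaves a stretch of stem cell chromosome on either side of the allele. Immature B cells are the stage at which a newly made receptor is tested against self, and self-reactive cells can change their light chain with the Rag1 and Rag2 recombinase. The chromosome around Rag1 and Rag2 also holds unrelated genes with known functions in blood cells, among them Traf6 (a signalling adaptor), Lmo2 and Spi1 (transcriptional regulators) and Rasgrp1 (an activator of Ras).

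Values are log2 ratios of autoreactive over non-autoreactive cells, given for array 1 and array 2 and then as their mean with the limma standard error (SE, n = 2 arrays). Levels of 1 channel are log2 intensities after loess normalization and Aquantile scaling of the 2 arrays to each other. They may be compared between groups for 1 probe but not between genes. A probe counts as called when limma's adjusted p, by Benjamini-Hochberg over the 22613 probes tested on the whole array, was under 0.05. Testing required 1 or both channels of each array to stand well above background, and a gene is represented by its brightest tested probe. The labels do not say which animals were pooled, so a p-value here reflects how far 2 arrays differ, with limma borrowing spread from all probes. In each channel 54.1% to 57.4% of gene spots stood well above background, and 0 were saturated. The 3 probes of Rag1 itself, which are no members, gave log2 ratios of 1.04 to 4.14, and since no label says which part of it was disrupted they check nothing about the allele.

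Promoters of 5 members are printed for the results that turn on them: genes that start back to back with a neighbour, the genes that adjoin Rag1 and Rag2, and the member with the highest ratio. Each sequence runs from 250 bases before to 50 bases after a RefSeq transcript start in assembly GRCm38.p6 and is given 5′ to 3′ on the gene's own strand. The table held promoters for 152 of the 224 member genes tested, matched by symbol, with Lmo2 and Spi1 not among them. In the first pair of sequences, capitals mark the bases that also lie in the promoter window of a neighbour on the other strand: Lrrc57 for Haus2 (chr2:120609132-120609431, plus strand) and Mfap1a for Wdr76 (chr2:121506473-121506772, plus strand).
Haus2: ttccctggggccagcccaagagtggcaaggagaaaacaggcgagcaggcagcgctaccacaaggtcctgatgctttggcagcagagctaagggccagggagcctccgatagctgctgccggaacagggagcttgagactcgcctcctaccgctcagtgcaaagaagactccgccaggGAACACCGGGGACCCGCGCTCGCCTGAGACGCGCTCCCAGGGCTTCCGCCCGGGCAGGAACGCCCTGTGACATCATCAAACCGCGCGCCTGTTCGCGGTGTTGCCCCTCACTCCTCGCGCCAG
Wdr76: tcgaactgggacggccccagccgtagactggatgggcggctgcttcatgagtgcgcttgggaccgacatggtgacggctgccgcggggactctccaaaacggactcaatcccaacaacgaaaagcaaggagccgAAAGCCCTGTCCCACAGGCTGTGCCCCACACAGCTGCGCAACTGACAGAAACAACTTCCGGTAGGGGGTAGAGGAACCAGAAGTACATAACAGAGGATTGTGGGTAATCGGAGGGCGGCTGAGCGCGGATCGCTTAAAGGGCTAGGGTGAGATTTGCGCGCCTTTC
In the other sequences, capitals mark GAGGAA read on either strand. This is the PU box, the motif bound by PU.1, which is encoded by the member Spi1 and is known in B and myeloid cells. The windows are those of Iftap (chr2:101628982-101629281, minus strand), Traf6 (chr2:101678170-101678469, plus strand) and Eif2ak4 (chr2:118388367-118388666, plus strand).
Iftap: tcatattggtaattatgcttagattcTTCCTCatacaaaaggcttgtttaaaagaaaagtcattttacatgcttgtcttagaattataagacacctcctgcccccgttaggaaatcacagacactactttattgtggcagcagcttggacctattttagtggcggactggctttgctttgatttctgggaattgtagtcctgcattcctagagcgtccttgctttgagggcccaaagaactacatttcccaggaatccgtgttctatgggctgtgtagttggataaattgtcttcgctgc
Traf6: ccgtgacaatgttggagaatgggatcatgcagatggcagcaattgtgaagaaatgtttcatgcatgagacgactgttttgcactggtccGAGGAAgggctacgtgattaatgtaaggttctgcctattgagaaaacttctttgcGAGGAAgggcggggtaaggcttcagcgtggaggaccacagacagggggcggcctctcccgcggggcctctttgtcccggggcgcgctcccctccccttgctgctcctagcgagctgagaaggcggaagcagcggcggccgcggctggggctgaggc
Eif2ak4: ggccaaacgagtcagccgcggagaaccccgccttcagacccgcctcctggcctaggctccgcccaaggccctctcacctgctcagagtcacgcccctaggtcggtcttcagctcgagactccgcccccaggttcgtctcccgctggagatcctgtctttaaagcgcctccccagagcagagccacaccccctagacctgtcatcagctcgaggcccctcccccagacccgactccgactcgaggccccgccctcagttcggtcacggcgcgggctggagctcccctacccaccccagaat
GAGGAA occurred once on either strand in the Iftap window, at 2 places in that of Traf6 and at 0 in that of Eif2ak4. It was found in 28.3% of all 32851 promoters of the table, in 28.9% of the 187 promoters of tested member genes and in 31.8% of the 22 promoters of called member genes. A match is a run of letters and not a measured site. The counts for a gene are those of the 1 window printed. The promoter table held 2 starts each for Haus2, Wdr76, Iftap and Eif2ak4 and 1 for Traf6. The Iftap window had 5 CpG dinucleotides, against 19 for Traf6, 22 for Eif2ak4, 23 for Haus2 and 21 for Wdr76, and a median of 18 over tested member genes and 7 over the whole table.

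Along the window, called members were a minority and went in both directions. Of the 333 members tested, 29 were called by limma, 13 of them higher and 16 lower in autoreactive cells, which is a share of 8.71%. Among the other placed probes 1165 of 21929 were called (5.31%), 698 higher (3.18%) and 467 lower (2.13%). With the 2 channels centred on their medians in place of loess, the split among members was 193 higher and 12 lower, on a scale that moved the median of the other placed probes to 0.54. With a trended and robust variance it was 6 higher and 0 lower (34 lower at an unadjusted p under 0.05), and the members' share was then 1.80% against 2.11% of the other placed probes. With separate channels it was 0.901% against 0.939%. The members' share was above that of the other placed probes in 6 of the 9 settings fitted to both arrays and below it in 3.

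The ratios of the members centred close to 0. The median over members was -0.023 (array 1, 0.0014; array 2, -0.047), against 0.0061 for the other placed probes. Their central range, from the 5th to the 95th percentile, ran from -0.68 to 0.58, against -0.53 to 0.54 for the others. Of the members, 47.1% had a ratio above 0, against 50.9% of the others. Pearson's r between the arrays was 0.758 across the 333 member probes and 0.695 across the other placed probes, which are probes of the same 2 hybridizations and not independent replicates.

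**Figure D1:**
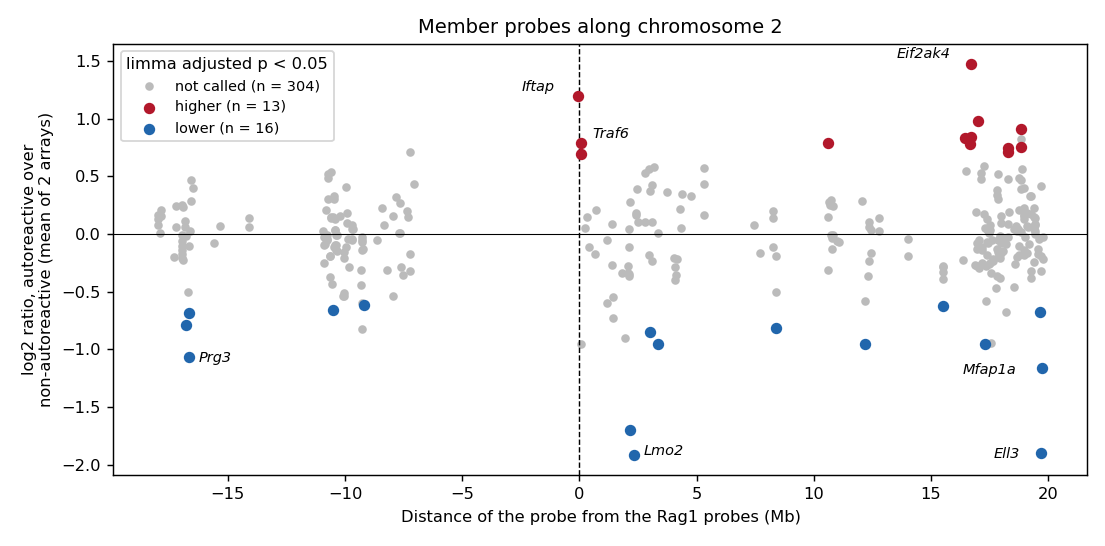
Log2 ratio of each of the 333 tested member probes (mean of 2 arrays) by the distance of the probe from the Rag1 probes in Mb, with the 13 probes called higher in red, the 16 called lower in blue and the others in grey. The called probes lie on both sides of 0 along the window, and the lowest are those of Lmo2, at 2.34 Mb, and Ell3, at 19.7 Mb above Rag1.

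Counted by gene, 24 of 224 tested member genes were called by limma (10.7%), 8 higher and 16 lower. Among other placed genes the share was 6.09%, with 519 higher (3.55%) and 372 lower (2.54%). Both arrays put 6 members at 2-fold or more, Eif2ak4 and Iftap above and Lmo2, Ell3, Mfap1a and a probe of the clone AK051363 below. That is 1.80% of members tested, against 1.4% of other placed probes. Array 2 alone had 17 members at or past 2-fold and array 1 alone 10.

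Called members lay near Rag1 and far from it. On the side below Rag1, 6 of 113 tested members were called (5.31%), 1 higher and 5 lower, and on the side above 23 of 220 (10.5%), 12 higher and 11 lower. Within 1 Mb of Rag1, 3 of 9 were called, all of them probes of Iftap and Traf6. The share was 13.5% within 5 Mb (7 of 52), 8.82% within 10 Mb (9 of 102) and 8.66% beyond (20 of 231). An unadjusted p under 0.05 in limma was found for 44.2% of members within 5 Mb, 38.2% within 10 Mb, 26.8% beyond 10 Mb and 22.9% of the other placed probes. Just outside the window, this share was 37.1% in the 10 Mb below it and 27.0% in the 10 Mb above it, so it did not fall steadily with distance. These shares were not tested against each other. By steps of 5 Mb the share called was 11.8% in the first 5 Mb above Rag1, with an exact binomial 95% interval of 4.44% to 23.9%. Between 15 and 20 Mb above it was 10.6% (5.92% to 17.2%). On the other side it was 9.38% between 15 and 20 Mb below and 2.56% between 5 and 10 Mb below. The intervals cover counting error only, and probes of 1 gene share its RNA. The median size of a log2 ratio, without its sign, was 0.33 in the first 5 Mb above Rag1, against 0.19 over all members and 0.18 over the other placed probes. It was 0.25 in the 10 Mb just below the window and 0.22 in the 10 Mb just above it.

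**Figure D2:**
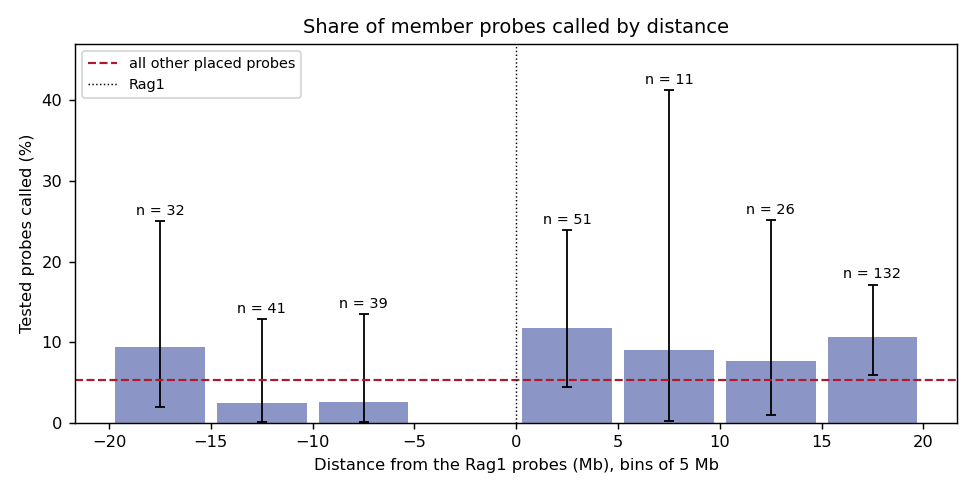
Share of tested member probes called (limma adjusted p under 0.05, in percent) in steps of 5 Mb from the Rag1 probes, with the number of probes tested and the exact binomial 95% interval, beside the 5.31% of all other placed probes (dashed). The step just below Rag1 holds a single tested probe, that of Iftap, and is not drawn, and most intervals take in the dashed line.

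Shares of this size occurred elsewhere. In 66 windows of the same length on other stretches of the genome, each with at least 100 tested probes, the share called ran from 1.34% to 11.1% with a median of 5.16%, and 3 windows stood above the members. The rest of chromosome 2 had 82 of 1427 called (5.75%), and the other 19 chromosomes with enough probes ran from 3.36% to 7.77%. Just outside the window, 15 of 89 probes (16.9%) were called in the 10 Mb below 81 Mb and 12 of 159 (7.55%) in the 10 Mb above 121.5 Mb. The 8 genes left out by name hold 13 called probes of 15 tested. With nothing left out the window had 42 of 372 called (11.3%), and 0 of the 66 windows stood above that. The window was set around Rag1 with earlier results known, and this count was added after the data were seen. Its rank among the windows is therefore no test.

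The tested member genes nearest to Rag1 on either side, Iftap and Traf6, were higher in autoreactive cells. The call of Iftap was kept under 7 of 8 alternative settings and that of Traf6 under 5. Iftap, named B230118H07Rik on the array and also known as NWC, overlaps Rag2 in the RefSeq table and encodes a protein associated with intraflagellar transport. Its probe (chr2:101412884-101412943 in the scanner files, for which no build is named) lies 78.5 kb below the Rag1 probes. The level was 12.77 and 13.38 in autoreactive and 11.74 and 12.03 in non-autoreactive cells. The log2 ratios were 1.03 and 1.35, with a mean of 1.19 ± 0.14 (limma adjusted p = 0.0095). Both autoreactive values stood above both non-autoreactive ones.

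Traf6, a ubiquitin ligase that relays signals from Toll-like, interleukin-1 and CD40 receptors, lies on the other side of Rag1 (chr2:101551219-101551278, 59.8 kb away). Its level was 10.92 and 11.92 in autoreactive and 10.23 and 11.04 in non-autoreactive cells. The groups overlapped when read across arrays, while within each array the autoreactive channel was the higher one. The ratios were 0.69 and 0.88, with a mean of 0.79 ± 0.13 (limma adjusted p = 0.0258), and a dimmer Traf6 probe gave 0.69 and was called too. The promoter windows of these genes, printed above, differ in base composition, with 42.0% G or C for Iftap and 59.3% for Traf6. Rag2, left out by name, had log2 ratios of 0.95 and 1.25 on the 2 arrays.

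Further genes within 1 Mb were not called. Prr5l, whose product binds the mTORC2 kinase complex, lies 75.7 kb from Rag1 and had ratios of -0.12 and -1.78, with a mean of -0.95 ± 0.36 (limma adjusted p = 0.186). Its level was 8.62 and 7.36 in autoreactive and 8.75 and 9.15 in non-autoreactive cells, so the low autoreactive value came from array 2. Commd9 had a mean ratio of 0.054 ± 0.13, Ldlrad3 of 0.14 ± 0.13 and Trim44 of -0.17 ± 0.14. Commd9 and Trim44 lay on opposite sides of 0 on the 2 arrays.

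The lowest member ratio belonged to Lmo2, a LIM-domain adaptor of transcription complexes in blood stem and progenitor cells (chr2:103826971-103831684, 2.34 Mb above Rag1). Its level was 10.47 and 10.16 in autoreactive and 12.45 and 12.02 in non-autoreactive cells. All autoreactive values lay below all non-autoreactive ones, a 3.78-fold difference. The ratios were -1.98 and -1.86, with a mean of -1.92 ± 0.12 (limma adjusted p = 0.0022), and the call was kept under 7 of the 8 alternative settings and lost with a trended and robust variance (limma adjusted p = 0.0826). The clone AK051363, 190 kb from Lmo2, was lower as well at -1.70 ± 0.19.

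**Figure D3:**
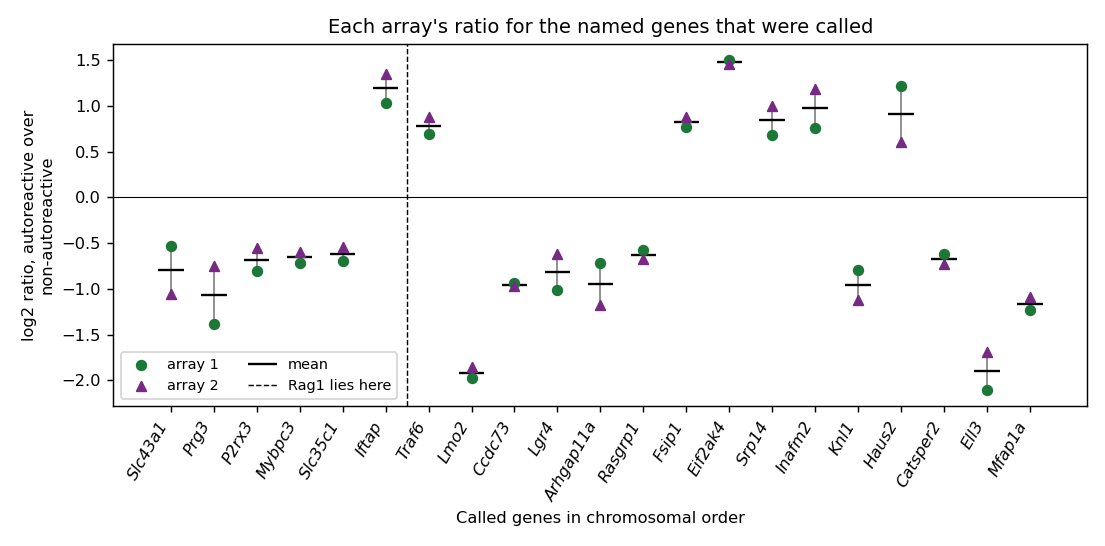
Log2 ratio of autoreactive over non-autoreactive cells on array 1 (circles) and array 2 (triangles), with their mean (bars), for the 21 called genes with a name, in the order in which they lie on chromosome 2. The 2 arrays lie on the same side of 0 for each gene shown, 7 above 0 and 14 below it. A call from these same 2 ratios largely requires this, so it is no separate check.

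Immune and blood cell genes of the window had 22 tested members, of which 1 was called higher and 3 lower, with a median of -0.13. Besides Traf6 and Lmo2, the called genes were Prg3 and Rasgrp1. Beside this count and those of the lists below stands the share of other placed genes called, 6.09% (3.55% higher and 2.54% lower). No list was tested against that share. Prg3 encodes a granule protein of eosinophils, and its ratios were -1.38 and -0.75, with a mean of -1.06 ± 0.18 (limma adjusted p = 0.0276). Rasgrp1, which activates Ras in response to diacylglycerol downstream of antigen receptors, had ratios of -0.58 and -0.67, with a mean of -0.63 ± 0.12 (limma adjusted p = 0.0438), a direction that turned to 0.36 with median centring. Its level was 13.55 and 13.64 in autoreactive and 14.13 and 14.31 in non-autoreactive cells, with both autoreactive values below both others. A dimmer Rasgrp1 probe gave -0.33 and was not called. The call of the bright Rasgrp1 probe was kept under 2 of the 8 alternative settings.

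Members known from B and myeloid cells that were not called included Spi1, which encodes PU.1, at -0.44 ± 0.15 (-0.66 on array 1 and -0.21 on array 2). Cd44, the hyaluronan receptor, stood at -0.053 ± 0.13, Cd82, a tetraspanin, at -0.32 ± 0.13, and Cd59a, a complement inhibitor, at 0.39 ± 0.12. Ehd4, an endocytic recycling protein, stood at 0.19 ± 0.15. For Cd82 and Cd59a the arrays lay on 1 side of 0, for Cd44 and Ehd4 on opposite sides.

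Markers of other cell types are given here beside these genes, for each whole list. The 7 markers of plasmacytoid dendritic cells all had a mean ratio below 0, with 1 called lower. Their mean log2 level was 10.40 and 9.47 in autoreactive and 11.15 and 11.63 in non-autoreactive cells on the 2 arrays, so the gap was wider on array 2. The 6 natural killer cell markers had mean levels of 10.13 and 8.87 against 10.13 and 10.39, and the 5 T cell markers tested of 8.90 and 8.62 against 9.03 and 9.15, with 0 called by limma in either list (2 in each at an unadjusted p under 0.05). The 7 myeloid markers had mean levels of 13.99 and 13.53 against 13.74 and 13.97, with 0 called and 0 at an unadjusted p under 0.05.

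The 5 erythroid markers tested had mean levels of 10.46 and 10.04 against 10.90 and 10.56, with 1 called lower. Of the 8 B lineage markers, which define the sorted cells, all were detected in both groups. Vpreb3 and Blnk were called higher and Pax5 lower, and their mean levels were 14.62 and 14.83 against 14.52 and 14.63. Of these 6 lists, Cd3g and Cd8a were the markers tested that did not stand well above background in each channel. Like the markers of plasmacytoid dendritic and natural killer cells, Prr5l had its lower ratio on array 2. Prg3, Lmo2 and Spi1 had theirs on array 1. The part of these cell types in the ratios of Prr5l, Prg3, Lmo2, Spi1 and the other members was not tested. In bulk RNA, fewer cells of a type and less RNA per cell cannot be told apart.

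Genes of RNA processing and translation held both the highest member ratio, that of Eif2ak4, and the second lowest, that of Ell3. Of 17 tested, 2 were called higher, 2 lower and 13 were not called, with a median of -0.12. Eif2ak4 encodes GCN2, the kinase that slows translation when amino acids are short (chr2:118211686-118211745, 16.7 Mb above Rag1). Its level was 12.37 and 12.70 in autoreactive and 10.88 and 11.25 in non-autoreactive cells, without overlap between the groups, and 2.78-fold higher in autoreactive cells. The ratios were 1.499 and 1.46, with a mean of 1.48 ± 0.12 (limma adjusted p = 0.00401). It was the 1 named gene called under each of the 8 alternative settings fitted to both arrays, with mean log2 ratios of 1.48 to 2.19. A dimmer Eif2ak4 probe gave 0.78 and was called.

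Srp14, a subunit of the signal recognition particle, lies next to Eif2ak4 and had ratios of 0.68 and 1.00, with a mean of 0.84 ± 0.14 (limma adjusted p = 0.0262). Its level was 15.70 and 15.92 in autoreactive and 15.02 and 14.92 in non-autoreactive cells, so both autoreactive values stood above both others.

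Ell3, an elongation factor of RNA polymerase II known in B cells, was the lowest of this list (chr2:121180015-121180074, 19.7 Mb above Rag1). Its level was 10.81 and 11.47 in autoreactive and 12.91 and 13.16 in non-autoreactive cells, 3.72-fold lower in autoreactive cells and without overlap. The ratios were -2.10 and -1.69, with a mean of -1.89 ± 0.15 (limma adjusted p = 0.00338). The Ell3 probe lies 1.36 kb from that of Pdia3, a protein folding enzyme gene left out by name, whose ratio was -1.06.

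Mfap1a, a component of the spliceosome, had ratios of -1.24 and -1.09, with a mean of -1.16 ± 0.13 (limma adjusted p = 0.00848) and levels of 12.52 and 12.30 in autoreactive and 13.76 and 13.39 in non-autoreactive cells. Its neighbour Mfap1b is a near-identical copy, so this probe may read both and the value is uncertain for either gene. Among the uncalled members of this list, Cstf3, a cleavage factor of messenger RNA ends, stood at 0.37 ± 0.12 and Nat10, an RNA acetyltransferase, at -0.34 ± 0.17, while the translation initiation subunit Eif3m stood at 0.0040 ± 0.12.

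Among 20 tested genes of DNA repair, chromatin and chromosome segregation, 1 was called higher and 1 lower, with a median of -0.092. Knl1, the kinetochore scaffold that links chromosomes to the spindle, had ratios of -0.79 and -1.12, with a mean of -0.95 ± 0.14 (limma adjusted p = 0.0185). A dimmer Knl1 probe gave -0.58 and was not called. Haus2, a subunit of the augmin complex that builds spindle microtubules, had ratios of 1.22 and 0.60, with a mean of 0.91 ± 0.17 (limma adjusted p = 0.0408). Each kept its side of 0 on both arrays.

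Proteins that act beside them in cell division or repair were not called. Bub1b, a spindle checkpoint kinase, stood at -0.27 ± 0.16 and Nusap1, a spindle protein, at -0.18 ± 0.14. Trp53bp1, which directs broken ends to end joining, stood at -0.00063 ± 0.13, and Phf21a and Ckap5, a histone reader and a microtubule polymerase, at -0.60 ± 0.17 and -0.51 ± 0.15 (0.048 and 0.092 with median centring). Arhgap11a, a GTPase-activating protein active in dividing cells and in none of the lists, was lower, with ratios of -0.72 and -1.18, with a mean of -0.95 ± 0.15 (limma adjusted p = 0.0256).

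Of 20 tested mitochondrial, redox and metabolic genes, 0 were called higher (3 at an unadjusted p under 0.05) and 2 lower, with a median of -0.010. Slc35c1, the GDP-fucose transporter of the Golgi, had ratios of -0.70 and -0.54, with a mean of -0.62 ± 0.13 (limma adjusted p = 0.0477), which turned to 0.34 with median centring. Its call was kept under 1 of the 8 alternative settings, and that of Slc43a1 under 2. Slc43a1, an amino acid transporter, had ratios of -0.53 and -1.05, with a mean of -0.79 ± 0.16 (limma adjusted p = 0.0488). Ivd, an enzyme of leucine breakdown, stood at 0.53 ± 0.13 (limma adjusted p = 0.0718), Ptpmt1, a phosphatase of mitochondria, at 0.48 ± 0.12 and Cat, catalase, at -0.34 ± 0.12, and none of these was called.

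Genes of membrane traffic, autophagy and signalling had the narrowest range of the 6 lists. Of 24 tested, 0 were called by limma (1 higher and 3 lower at an unadjusted p under 0.05), with ratios from -0.54 to 0.41 and a median of -0.10. The ends of that range were Ext2, a heparan sulfate polymerase, at -0.54 ± 0.12 (limma adjusted p = 0.064) and Atg13, a subunit of the autophagy initiation kinase complex, at 0.41 ± 0.13. Vps39 and Vps18, subunits of lysosomal tethering complexes, stood at -0.46 ± 0.12 and -0.34 ± 0.13. The directions of Ext2, Vps39 and Vps18 turned with median centring, under which 20 of the 24 were called higher. Under the other 7 settings 0 of 24 were called.

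Developmental and neural genes were mostly dim. Of 26 on the array 9 were tested, with 0 called higher (0 at an unadjusted p under 0.05) and 2 lower. Lgr4, a receptor for R-spondins in Wnt signalling, had ratios of -1.02 and -0.62, with a mean of -0.82 ± 0.15 (limma adjusted p = 0.0331) and levels of 6.66 and 7.07 in autoreactive and 7.67 and 7.69 in non-autoreactive cells. A dimmer Lgr4 probe gave -0.50 and was not called. Mybpc3, a heart muscle myosin-binding protein, had ratios of -0.72 and -0.60, with a mean of -0.66 ± 0.12 (limma adjusted p = 0.0392). Fmn1, a formin, and Actc1, cardiac actin, stood at 0.29 ± 0.13 and -0.37 ± 0.15 and were not called.

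The other 112 tested member genes, in none of these lists, had 4 called higher and 6 lower. Among other placed genes the shares were 3.55% higher and 2.54% lower. Fsip1, a protein of the sperm tail, had ratios of 0.78 and 0.88, with a mean of 0.83 ± 0.12 (limma adjusted p = 0.0202), and Inafm2, a small membrane protein, of 0.76 and 1.19, with a mean of 0.98 ± 0.15 (limma adjusted p = 0.0216). A dimmer Fsip1 probe gave 0.55 and was not called. Catsper2, a subunit of the sperm calcium channel, was lower at -0.62 and -0.73, with a mean of -0.67 ± 0.12 (limma adjusted p = 0.0355). P2rx3, an ATP-gated channel of sensory neurons, was lower at -0.81 and -0.56, with a mean of -0.68 ± 0.13 (limma adjusted p = 0.0421). Ccdc73 was not well above background on the autoreactive side on either array, and passed the filter only through the non-autoreactive side. Its call is therefore no support for its direction. In autoreactive cells it was at least 1.40-fold lower, against the lowest signal that counts as above background. Its log2 ratio was -0.95 in the main setting and -2.99 with the deposited ratios.

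Several called members lay beside one another. Counting called genes whose probes were at most 0.5 Mb apart, there were 11 neighbouring pairs, of which 10 had the same direction (90.9%), 4 both higher and 6 both lower. Outside the window 192 of 309 such pairs shared their direction (62.1%), and on the rest of chromosome 2 14 of 24 (58.3%). The pairs both lower include Ccdc73 with the clone AK031920, and the call of Ccdc73 is no support for its direction, as given above. The difference between the shares was not tested, and neighbouring pairs within a stretch share genes.

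The stretches were these. Slc43a1, Prg3 and P2rx3 were lower within 136 kb, 16.6 to 16.8 Mb below Rag1, where 6 member genes were tested, and the other 3 ranged from -0.50 to -0.019. Iftap and Traf6, the 2 tested member genes of a 138 kb stretch, were higher, and Rag1 and Rag2, left out by name, lie between them and were called higher too. Catsper2, Ell3 and Mfap1a were lower within 96.9 kb, 19.6 to 19.7 Mb above Rag1, and the other 2 member genes tested there stood at -0.32 and 0.41. Pdia3, left out by name, lies in that stretch and was called lower at -1.06. Lmo2 and the clone AK051363 were lower within 190 kb, and the 1 other member gene tested there stood at 0.28. Ccdc73 and the clone AK031920 were called lower within 378 kb, while the other 5 member genes tested there ranged from 0.0040 to 0.58. Since Ccdc73 passed the filter only through the non-autoreactive side, its place in this stretch is no support for a shared direction.

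The longest stretch ran over 864 kb between 16.5 and 17.3 Mb above Rag1. Fsip1, Eif2ak4, Srp14 and Inafm2 were higher there and Knl1 lower, and the other 10 of the 15 member genes tested ranged from -0.29 to 0.53. Gpr176 and Bmf, left out by name and not among the 15, lie in the same stretch and were called higher, with log2 ratios of 2.62 for Gpr176 and 0.66 to 2.21 for the 3 probes of Bmf.

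Genes that start back to back gave a closer look, since their promoter windows share sequence. There were 11 pairs of tested member genes on opposite strands with overlapping windows, and 9 of them had ratios of the same sign (81.8%), against 310 of 556 pairs outside the window (55.8%). Among the 9 were Wdr76 with Mfap1a, at -0.023 and -1.16, and Zfyve19 with Dnajc17, at 0.0054 and 0.025. The difference in log2 ratio within a pair had a median of 0.27 among members and 0.19 outside. Pairs of members and pairs outside were not tested against each other. Haus2 and Lrrc57 start 24 bases apart and share the 123 bases in capitals above. They stood at 0.91 ± 0.17 and 0.82 ± 0.19, the latter with a limma adjusted p of 0.0691, so their ratios differed by less than their errors.

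Wdr76, a DNA damage response protein, and Mfap1a start 67 bases apart and share 166 bases. Mfap1a stood at -1.16 ± 0.13 and Wdr76 at -0.023 ± 0.13, the widest gap of the 11 pairs. Apip, an enzyme of methionine salvage, and Pdhx, a subunit of pyruvate dehydrogenase, stood at -0.55 ± 0.12 and 0.084 ± 0.12. Sharing a start region thus went with like ratios in some pairs and with unlike ones in others.

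**Figure D4:**
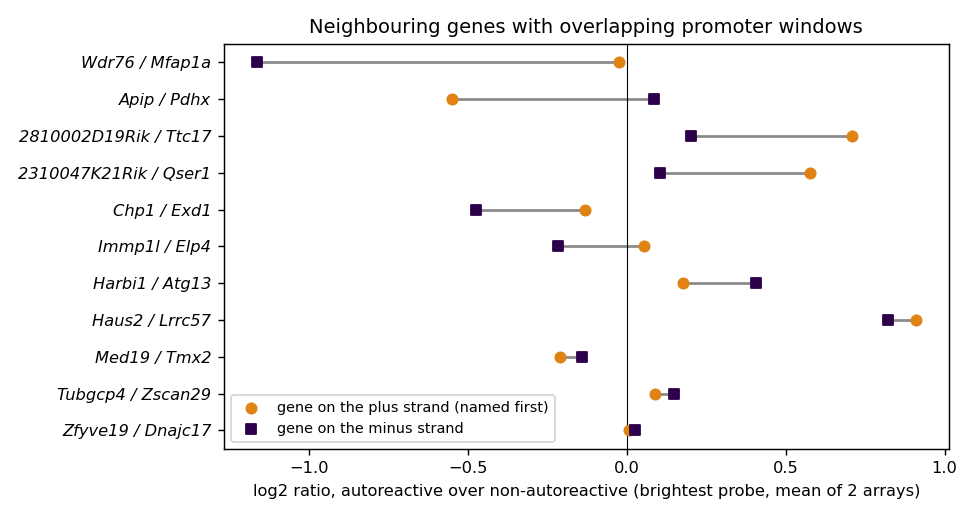
Log2 ratio (mean of 2 arrays, brightest probe) of the genes of 11 back-to-back pairs whose RefSeq promoter windows overlap, with circles for the gene on the plus strand, squares for its partner and a line for the gap. Haus2 and Lrrc57 lie close together at 0.91 and 0.82, while Mfap1a lies at -1.16 and its partner Wdr76 at -0.023.

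Probes of the same gene read different stretches of its transcript. Of 79 member genes with at least 2 tested probes, the range of their log2 ratios had a median of 0.20, against 0.19 for 5131 other placed genes. No member gene had a range of 1 or more, against 1.27% of the others. The widest was that of Eif2ak4, at 0.70, with both probes above 0. Of the 8 member genes with several tested probes and a called one, 2 had all probes called, 6 had called and uncalled probes, and 0 had probes on both sides of 0, against 44 of 396 other placed genes. Pla2g4b, a phospholipase, had a bright probe at 0.48 and dimmer ones at 0.71 and 0.75, so its call depended on the probe. Lrrc57 likewise had 0.82 and 0.75.

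**Figure D5:**
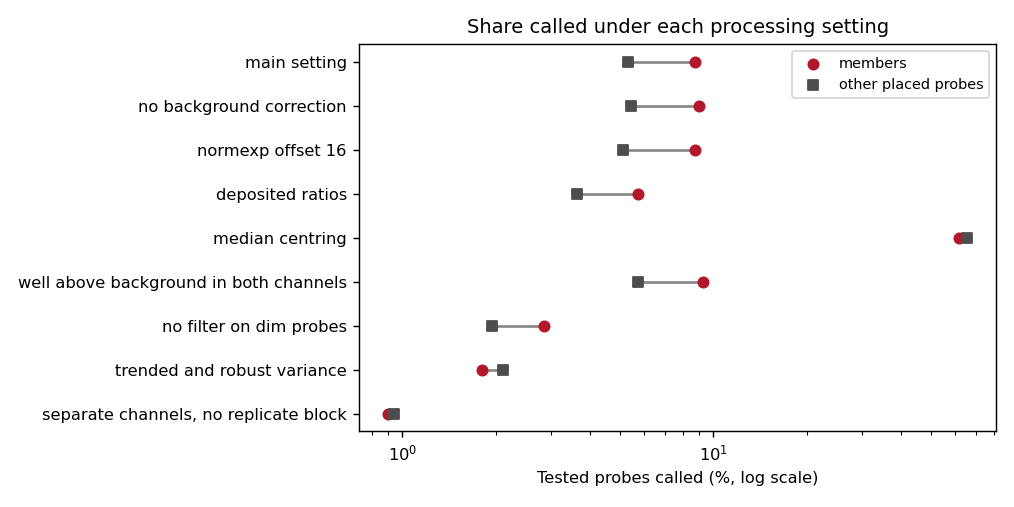
Share of tested probes called (percent, log scale) for members (circles) and other placed probes (squares) under the main setting and 8 alternatives. Members stand above the other probes with 8.71% against 5.31% in the main setting, and below them with median centring, with a trended and robust variance and with separate channels.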

How the data were processed

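For each channel, the deposited files give the mean intensity of a spot and the median intensity around it, read by Agilent Feature Extraction 9.5.1.1, as their headers record. Log10 ratios (Cy5 over Cy3) were deposited too, computed by the same program per the file headers, and the table deposited for the series repeats them (largest difference 5e-10, median 0 on each array). Per the labels, each sample gave 0.5 ug of RNA for amplification and labelling.

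Normexp background correction (offset 50), loess normalization and tests against 0 (lmFit, then eBayes, two-sided) were run in limma 3.58.1 under R 4.3.3. Of 41174 probes, 22613 were bright enough to test in 1 or both channels on both arrays, and p-values were adjusted over all 22613 by Benjamini-Hochberg, with calls at 0.05. Residual and prior degrees of freedom were 1 and 5.1. The script was tested on simulated data. For a dim probe, the floor of a bound is, array by array, its own signal or the lowest one still well above background, whichever is higher, with channels scaled by Aquantile after loess, so a bound is open to dye bias.

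Names came from a RefSeq table of GRCm38.p6 (465 members matched, 133 kept the file's name), and promoters from a RefSeq table of that assembly. The rule for naming took the 14 called members with the highest and the 14 with the lowest ratios, tested genes within 1 Mb of Rag1 and up to 4 genes of each list with the largest ratios, clone and model names left out. Other members printed to illustrate a list, a probe range or a pair were chosen after their values were seen. The members and lists were chosen with earlier results of these data known. Alternatives were other background corrections and offsets, the deposited ratios, median centring, other filters, a trended and robust variance, separate channels, a mean over all probes of a gene, each array by itself, narrower windows and other folds.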

Additional observations from a re-analysis of the deposited data

How the results depend on the processing

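The main counts were 13 probes higher and 16 lower, 8 genes higher and 16 lower, and 6 members at 2-fold. The deposited ratios gave 10 probes lower, 5 genes higher, 9 genes lower and 13 members at 2-fold. Median centring gave 193 probes higher, 135 genes higher, 34 members at 2-fold and a members' median of 0.48. Without a filter on dim probes, 7 probes and 7 genes were lower. A trended and robust variance gave 6 probes higher and 0 probes and 0 genes lower, with 34 probes and 29 genes lower at an unadjusted p under 0.05 by limma. The ratio pairs the 2 channels of an array, and the fit of separate channels, with no replicate block, called 1 probe higher and 2 lower and 1 gene higher and 2 lower. Within 10 Mb of Rag1, 3 probes were called higher and 6 lower, and 2 genes higher and 6 lower. Within 5 Mb the counts were 3 and 4 probes and 2 and 4 genes. These windows hold fewer probes. At 1.5-fold, 25 members had changed on both arrays, and on 1 array alone between 10 and 17 were at 2-fold. With nothing left out of the window, an alternative chosen after seeing the data, 23 probes were higher. The cause of the other differences was not tested.

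Median centring turned 10 named genes to a ratio above 0: Rasgrp1 (0.36), Slc35c1 (0.34), Trim44 (0.495), Phf21a (0.048), Ckap5 (0.092), Apip (0.32), Ext2 (0.28), Vps39 (0.27), Vps18 (0.43) and Actc1 (0.086). It moved the median of the other placed probes to 0.54, so these ratios lie below that shift. With 1 replicate left out, Trim44 ranged from -0.36 to 0.012 and Commd9 from -0.038 to 0.15. Of 21 named calls, 1 was lost without background correction, 3 with offset 16, 11 with the deposited ratios and 8 with median centring. Losses were 9 without a filter, 15 with a trended and robust variance and 18 with separate channels. With probes above background in both channels 0 were lost, but Ccdc73 was not tested there. Eif2ak4 was called in each of these fits. The least steady call was that of Slc35c1, kept under 1 of the 8 alternatives. Those of Rasgrp1 and Slc43a1 were kept under 2. For Arhgap11a, Mybpc3 and P2rx3 it was 3, and for Prg3 and Catsper2 it was 4. With 2 arrays of 1 dye orientation, the number of arrays limits the precision and a dye effect cannot be told apart from the groups. Dim probes limit it further, since 265 of the 598 members were not tested.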
